A study of Mus musculus with 6 samples.

Results

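Potassium channel genes were examined in inguinal white fat, a depot under the skin of the groin, of aged mice. The 3 GSNOR KO samples came from animals without GSNOR, an enzyme that removes S-nitrosoglutathione and is the product of Adh5. The 3 WT samples came from mice with the gene intact. Both groups were 20 months old and on the C57BL/6J background, and the labels name no other allele and no treatment. They do not say how the deletion was made, which cells it covers or whether 1 animal gave 1 sample. Every p-value therefore reflects only how far these samples spread, and that spread may be technical. The genes were taken by name, as rows whose symbol begins with Kcn followed by letters and a digit, without Kcnk3, and with at least 60 counts over the 6 libraries. This gave 42 genes of 92 so named and of 22695 rows in all. Of the other 50, 11 had no count and 39 had fewer than 60. Kcng4, with 78 counts, lay just inside the limit and Kcne3, with 50, just outside it.

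Potassium channels let potassium leave the cell and so hold the membrane potential negative. Inward rectifiers and two-pore-domain channels act near rest, voltage-gated channels open on depolarization, and calcium-activated channels open when calcium rises inside the cell. Auxiliary subunits carry no pore of their own and change the gating or trafficking of the pore-forming subunits. In fat, the channels are known from adipocytes, from their progenitors, and from the vessels, immune cells and nerve sheaths of the tissue. Whole tissue was sequenced, so fewer cells of a type and less RNA per cell cannot be told apart.

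The libraries held 20277594 to 23961574 counts. Adh5 was at 4.002, 3.81 and 5.08 CPM (counts scaled to a fixed library size with TMM factors) in GSNOR KO replicates 1 to 3, against 76.9, 66.4 and 58.8 CPM in WT replicates 1 to 3, lower in all 3 GSNOR KO libraries. Markers of several cell types moved with the groups. The 17 skeletal muscle markers measured, of 20 listed, took 1.15, 0.661 and 1.002% of the counts in GSNOR KO replicates 1 to 3, against 4.28, 1.67 and 1.90% in WT replicates 1 to 3. None of them was at 0 and 7 were called lower. The 9 macrophage markers measured took 0.0118 to 0.0175% of the counts in GSNOR KO and 0.0271 to 0.0581% in WT, with 6 called lower. WT replicate 1 was the highest library for both. Adipocyte markers took 1.39 to 1.42% in GSNOR KO and 1.21 to 1.31% in WT, and 1 of 8 was called higher. Of the brown and beige adipocyte markers 3 of 7 were called higher, among them Kcnk3, the channel gene left out above. The 7 markers took 0.494 to 0.561% in GSNOR KO and 0.257 to 0.451% in WT. Of the progenitor and fibroblast markers 5 of 8 were called lower, with 0.0191 to 0.0261% in GSNOR KO and 0.0329 to 0.0499% in WT. Endothelial markers took 0.229 to 0.249% in GSNOR KO and 0.119 to 0.231% in WT. The part of these cell types in the results was not tested. A fit with a skeletal muscle score is given below, but that score differs between the groups itself, so it cannot separate muscle content from genotype. Of 6 neuronal markers 5 were in the table and none passed the filter on low counts.

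Measured per transcript length, most of the signal came from a few genes. The authors' FPKM (fragments scaled by transcript length and library size) averaged over 10 in 2 of the 42 genes, over 1 in 14 and under 0.5 in 17. Kcnj8, which encodes Kir6.1, the pore of the vascular type of ATP-sensitive channel, was highest, at 23.0 ± 1.86 FPKM in GSNOR KO and 19.8 ± 2.23 FPKM in WT (SD, n = 3 each). Kcna5, the gene of the voltage-gated channel Kv1.5, followed at 16.2 ± 2.44 FPKM in GSNOR KO and 15.1 ± 0.384 FPKM in WT. Kcnj11 and Kcnj2, both inward rectifiers, were lower on this scale. Kcnj11 averaged 1.74 ± 0.595 FPKM in GSNOR KO and 3.86 ± 2.24 FPKM in WT. Kcnj2 averaged 0.895 ± 0.285 FPKM in GSNOR KO and 3.1985 ± 1.22 FPKM in WT. Kcnj8 made up 30.3 to 34.006% of the summed FPKM of the 42 genes in GSNOR KO libraries and 22.8 to 25.1% in WT libraries. The sum itself was 69.1 to 76.5 FPKM in GSNOR KO and 76.2 to 97.5 FPKM in WT, with overlapping libraries.

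**Figure D1:**
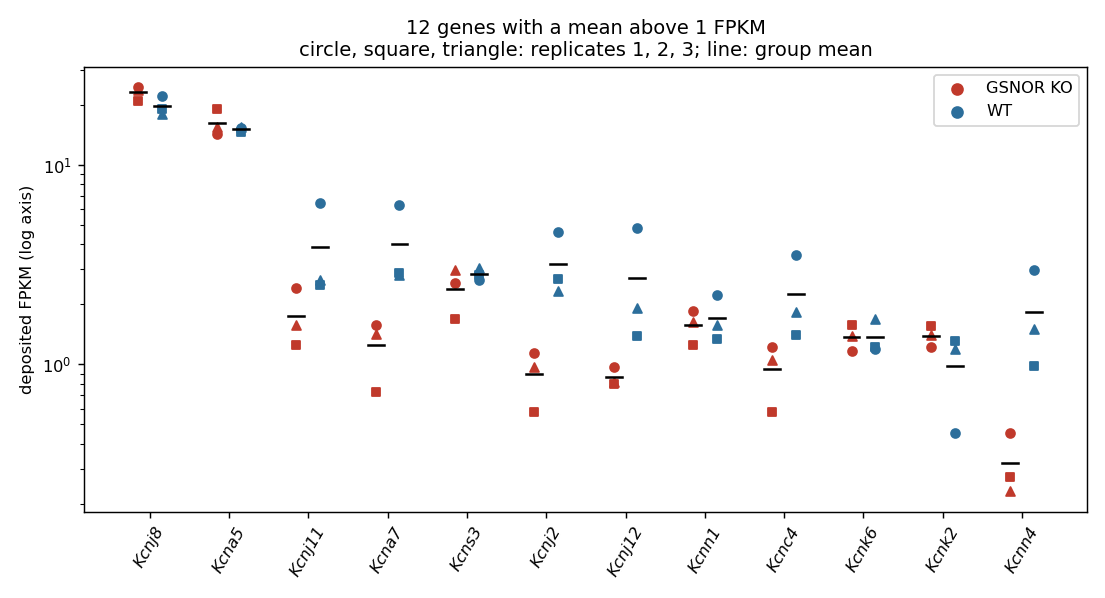
Deposited FPKM, on a log axis, of 12 potassium channel genes with a mean above 1 FPKM, ordered by that mean. Each symbol is 1 library and the line is the group mean. Kcnj8 and Kcna5 stand above 10 FPKM in every library, and Kcna7, Kcnj2, Kcnj12 and Kcnn4 lie lower in all GSNOR KO libraries. Kcnj11 and Kcnc4, which were not called, also lie lower in all GSNOR KO libraries.

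GSNOR KO was compared with WT by the edgeR quasi-likelihood test across 13694 genes, with p-values adjusted over all of them and called under 0.05. All 42 potassium channel genes passed the filter on low counts. Of these 6 fell in GSNOR KO (14.3%, against 3.14% of all tested genes called lower), 0 rose (against 3.9% called higher) and 36 were not called. In either direction 7.04% of all tested genes were called. Kcnn2, Kcnn4, Kcnj2, Kcnj12 and Kcna7 were among the genes that fell. At an unadjusted p under 0.05 there were 14 lower and 0 higher, against 15.7% and 12.9% of all tested genes. DESeq2 called 12 of the 42 lower and 0 higher, against 8.76% and 8.35% of all tested genes. Limma voom called 2 lower, Kcnj2 and Kcnn2, and 0 higher, against 1.94% and 3.42%. The same 14 genes had every GSNOR KO library below every WT library, 33.3% of the 42 against 19.5% of all tested genes. Kcnn2 and Kcnj14, among these 14, met the limit on summed counts only through the WT libraries, so their direction was not independent of that choice. Kcnj8 alone had every GSNOR KO library above WT in CPM, as in 17.3% of all tested genes. Of all tested genes 36.7% did not overlap in one direction or the other. The median log2 fold change (GSNOR KO over WT) of the 42 genes was -0.28, beside -0.04 over all tested genes.

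The number of calls changed when single libraries were left out. The 6 genes called lower became 8 without WT replicate 1 (against 8.77% of all genes called lower and 11.8% higher) and 5 without WT replicate 3 (against 3.37% lower and 3.22% higher). Without WT replicate 2 edgeR called 0 (against 0.0359% lower and 0.0575% higher), with 15 of the 42 lower at an unadjusted p under 0.05, beside 14.2% of all genes. Without GSNOR KO replicate 1, 2 or 3 it called 0 each time, with 12, 10 and 12 lower at an unadjusted p under 0.05, beside 11.9, 9.64 and 10.8% of all genes. The calls over all genes moved alike: they numbered 964 with all libraries, 2844 without WT replicate 1, 915 without WT replicate 3, and 13 without WT replicate 2. Dropping GSNOR KO replicate 1 left 5 calls, and dropping replicate 2 or 3 of that genotype left 3. The fold changes kept their sign throughout for the 5 named genes. Over the 6 omissions the log2 fold change was -5.45 to -4.61 for Kcnn2, -2.56 to -1.83 for Kcnn4 and -2.15 to -1.63 for Kcnj2. It was -1.70 to -1.05 for Kcnj12 and -1.75 to -1.15 for Kcna7. Kcnn4, Kcnj2, Kcnj12 and Kcna7 were all nearest to 0 without WT replicate 1, and Kcnn2 without GSNOR KO replicate 2. WT replicate 1 was the highest WT library in 10 of the 14 genes that did not overlap, and GSNOR KO replicate 2 the lowest GSNOR KO library in 10.

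**Figure D2:**
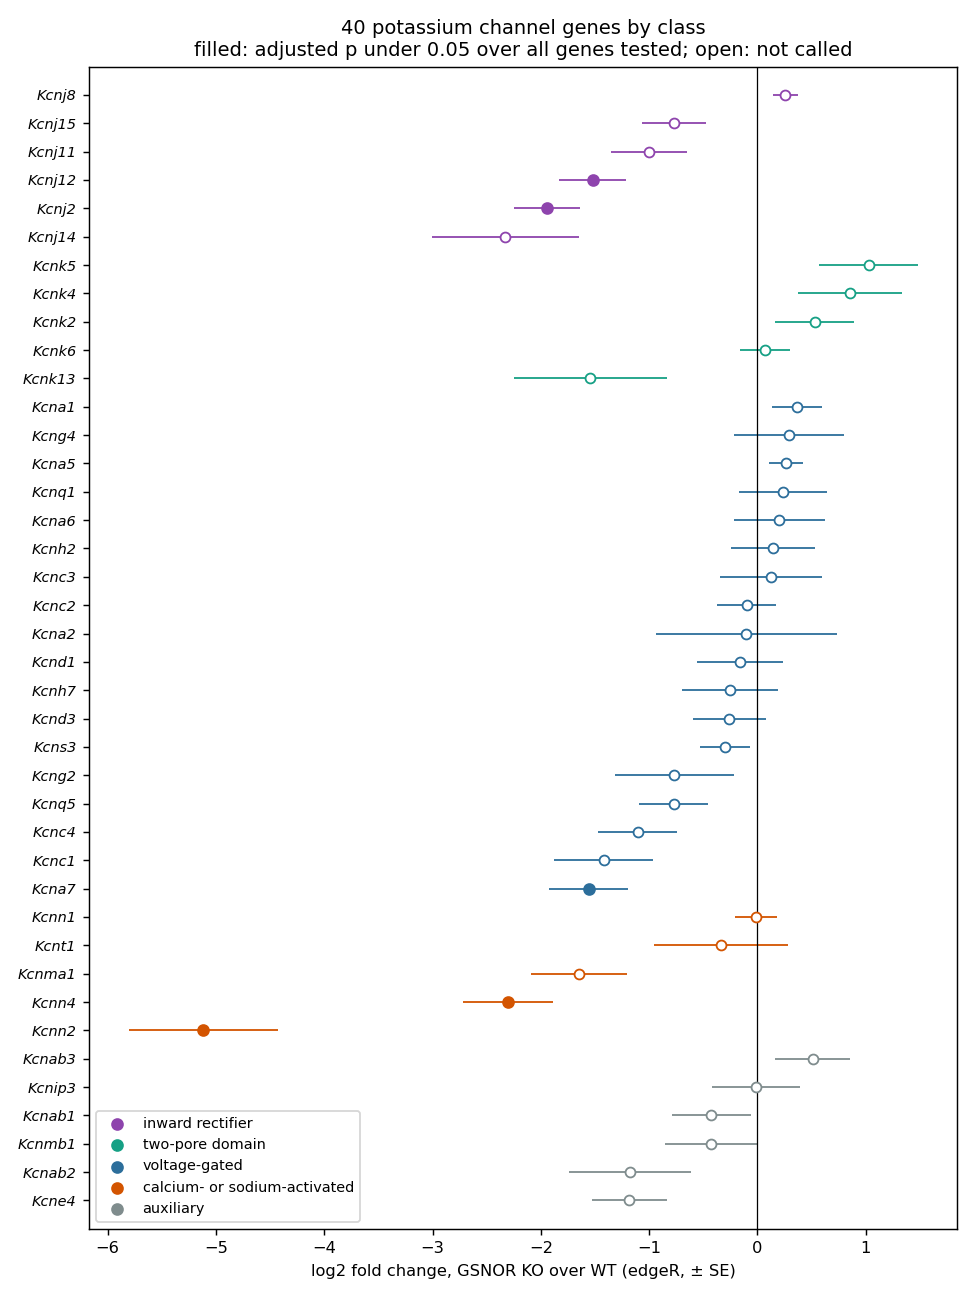
Log2 fold change, GSNOR KO over WT, of 40 potassium channel genes with the standard error of the edgeR fit, grouped by structural class. Filled symbols mark 5 genes called over all genes tested. They all lie left of 0, in the inward rectifier, voltage-gated and calcium- or sodium-activated classes.

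Among the inward rectifiers 2 of 6 fell and 0 rose, with a class median log2 fold change of -1.26. Kcnj2 encodes Kir2.1, a strong rectifier that sets the resting potential of muscle and other cells. It was at 5.40, 2.87 and 4.45 CPM in GSNOR KO replicates 1 to 3, against 22.1, 14.9 and 11.9 CPM in WT replicates 1 to 3. Every GSNOR KO library lay below every WT library, with means of 4.24 ± 1.28 CPM in GSNOR KO and 16.3 ± 5.24 CPM in WT (SD, n = 3 each). The log2 fold change was -1.95 (SE 0.306, edgeR adjusted p = 0.0226). Kcnj12 encodes Kir2.2, which can join Kir2.1 in 1 channel. It was at 4.18, 3.81 and 4.45 CPM in GSNOR KO replicates 1 to 3, against 18.2, 8.68 and 8.87 CPM in WT replicates 1 to 3. WT replicate 1 stood far above the other WT libraries, and the groups did not overlap (log2 fold change -1.52, SE 0.312, edgeR adjusted p = 0.0367). Kcnj14, the gene of Kir2.4 of the same subfamily, was at 0.225, 0.449 and 0.135 CPM in GSNOR KO and at 1.01, 2.48 and 0.640 CPM in WT, and was not called (log2 fold change -2.33, edgeR adjusted p = 0.0773). It was highest in WT replicate 2, not in WT replicate 1, and was called without WT replicate 1 (log2 fold change -2.48, edgeR adjusted p = 0.0355). Kcnj14 had 5, 10 and 3 counts in GSNOR KO replicates 1 to 3, against 23, 54 and 14 in WT replicates 1 to 3. With its GSNOR KO counts in both groups it would have missed the limit on summed counts. Its choice thus depended on higher WT counts, and its fold change and call are to be read with that limit.

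The 2 Kir2 genes that fell lie on chromosome 11 (GRCm38), Kcnj2 at chr11:111066164-111076821 and Kcnj12 at chr11:61022564-61071131, both on the plus strand. The 250 bases before the transcript start that RefSeq gives (GRCm38.p6) are shown for them because they fell together and differ in sequence. The Kcnj2 window is chr11:111065914-111066163 and the Kcnj12 window chr11:61065554-61065803, which precedes an internal exon of the gene. Capitals mark E-boxes, the CANNTG sites that muscle-type and other basic helix-loop-helix factors can bind.
Kcnj2: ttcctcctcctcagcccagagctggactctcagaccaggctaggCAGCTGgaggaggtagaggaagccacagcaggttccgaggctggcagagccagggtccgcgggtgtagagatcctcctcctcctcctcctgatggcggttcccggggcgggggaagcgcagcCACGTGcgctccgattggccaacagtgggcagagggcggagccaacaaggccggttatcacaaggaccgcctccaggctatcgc
Kcnj12: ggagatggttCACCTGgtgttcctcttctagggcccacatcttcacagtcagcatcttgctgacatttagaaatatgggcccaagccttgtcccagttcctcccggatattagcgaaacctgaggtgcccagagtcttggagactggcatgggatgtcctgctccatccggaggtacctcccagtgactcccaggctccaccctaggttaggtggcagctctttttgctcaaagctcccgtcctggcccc
The Kcnj2 window holds CAGCTG and CACGTG, which begin 206 and 84 bases before the start, and is 65.6% G and C with 14 CpG. The Kcnj12 window holds CACCTG, which begins 240 bases before the start, and is 56.0% G and C with 4 CpG. Searched on both strands, an E-box was in 34 of 44 windows of 29 potassium channel genes in the table, some with several starts, and in 66.2% of the 32851 windows searched over all genes. CAGCTG, which is one form of CANNTG, was in 15 of the 44 windows and in 13.0% of all windows. Kcnj2 held it, while Kcnj12, Kcna7 and Kcnn4, which also fell, did not. The site was also in windows of Kcne4, Kcng4, Kcnip3, Kcnk4 and Kcnn1, which edgeR did not call. The MEF2 motif was in 0 of the 44 and in 2.92% of all. These matches describe the letters only.

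ATP-sensitive channels pair a Kir6 pore with a sulfonylurea receptor. Kcnj11, which encodes Kir6.2, the pore of the beta cell and striated muscle type, was at 12.7, 7.45 and 10.025 CPM in GSNOR KO replicates 1 to 3, against 31.5, 14.7 and 14.1 CPM in WT replicates 1 to 3. WT replicate 1 was far above the other WT libraries, the groups were close but did not overlap, and Kcnj11 was not called (log2 fold change -0.999, SE 0.351, edgeR adjusted p = 0.116). Kcnj8 was at 53.0, 49.4 and 56.5 CPM in GSNOR KO replicates 1 to 3, against 46.3, 46.8 and 39.8 CPM in WT replicates 1 to 3. In CPM it was higher in 3 of 3 GSNOR KO libraries but not called (log2 fold change 0.26, SE 0.112, edgeR adjusted p = 0.180). In FPKM its groups overlapped, with 21.0 in GSNOR KO replicate 2 and 22.2 in WT replicate 1. The FPKM of Kcnj8 was 10.2, 16.8 and 14.9 times that of Kcnj11 in GSNOR KO replicates 1 to 3, against 3.45, 7.70 and 6.77 times in WT replicates 1 to 3. Abcc9, which encodes the receptor SUR2 that partners both pores in muscle and vessels, had a log2 fold change of -0.21 (edgeR adjusted p = 0.254). Abcc8, the SUR1 receptor of beta cells, was below 1.1 CPM in all libraries. Kcnj15, the gene of Kir4.2, was at 3.37, 2.69 and 4.14 CPM in GSNOR KO and 5.08, 7.95 and 4.39 CPM in WT (log2 fold change -0.77, edgeR adjusted p = 0.134).

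Of the 5 calcium- or sodium-activated channel genes 2 fell and 0 rose. Kcnn2 encodes SK2, a small-conductance channel gated by calcium. It had 1, 0 and 1 counts in GSNOR KO replicates 1 to 3, against 35, 28 and 19 counts in WT replicates 1 to 3. The 2 counts against 82, at nearly equal depth, gave a ratio of 0.0243, with an exact 95% interval of 0.00289 to 0.0906 that covers counting error only. Kcnn2 was thus scarce in both groups, with at most 1.53 CPM, reached in WT replicate 1. It fell by 5.12 on the log2 scale in the fit (SE 0.689, edgeR adjusted p = 0.0181), a value that depends on how the fit treats a count of 0. Kcnn2 met the limit of 60 counts and the filter on low counts through the WT libraries alone. At its GSNOR KO level it could be tested only by being higher in WT. The filter of 1 CPM reached by 3 libraries left it out. Kcnn2 is on chromosome 18, and 607 of its 7468 exonic bases overlap genes of the opposite strand. How strand was handled in counting is not given in the sources used here, and reads from both cannot be told apart.

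Kcnn4 encodes the intermediate-conductance channel KCa3.1 of lymphocytes, macrophages and other cells. It was at 1.30, 0.942 and 0.764 CPM in GSNOR KO replicates 1 to 3, against 7.61, 3.03 and 4.3001 CPM in WT replicates 1 to 3. All GSNOR KO libraries lay below all WT libraries, WT replicate 1 was highest, and Kcnn4 fell by 2.31 on the log2 scale (SE 0.414, edgeR adjusted p = 0.0279). The macrophage markers were likewise lower in GSNOR KO and highest in WT replicate 1. They were lowest in GSNOR KO replicate 2, where Kcnn4 had 21 counts, against 17 in GSNOR KO replicate 3. These counts are too close to rank the libraries. The T and NK cell markers took 0.000351 to 0.000538% of the counts in GSNOR KO and 0.000613 to 0.00226% in WT, highest in WT replicate 3. The part of either in the Kcnn4 result was not tested. Kcnk13, which encodes THIK-1, a background channel of microglia and other macrophages, was at 0.630, 0.224 and 0.360 CPM in GSNOR KO and at 2.32, 0.459 and 0.778 CPM in WT. Its groups overlapped (log2 fold change -1.54, edgeR adjusted p = 0.200). Kcnk13 had 14, 5 and 8 counts in GSNOR KO replicates 1 to 3, against 53, 10 and 17 in WT replicates 1 to 3. With its GSNOR KO counts in both groups it too would have missed the limit on summed counts.

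Kcnn1, the gene of SK1, was at 9.89, 7.31 and 10.025 CPM in GSNOR KO replicates 1 to 3, against 10.9, 7.95 and 8.55 CPM in WT replicates 1 to 3. The groups overlapped and the log2 fold change was -0.01 (SE 0.195, edgeR adjusted p = 0.977), with its sign turning under RLE scaling. Kcnma1, which encodes the pore of the large-conductance BK channel of smooth muscle, was at 1.44, 0.404 and 0.809 CPM in GSNOR KO and at 2.84, 3.03 and 2.47 CPM in WT. Its groups did not overlap but Kcnma1 was not called (log2 fold change -1.65, SE 0.446, edgeR adjusted p = 0.0650). Of its 16976 exonic bases 1016 overlap a gene of the opposite strand, so the limit on strand given for Kcnn2 applies to it too. Without WT replicate 1 it was called (log2 fold change -1.60, edgeR adjusted p = 0.0419). Kcnt1, which encodes the sodium-activated channel Slack, was at 0.720, 1.08 and 0.360 CPM in GSNOR KO and at 0.350, 1.52 and 0.869 CPM in WT, with overlapping groups (log2 fold change -0.34, edgeR adjusted p = 0.760). The 9 smooth muscle and pericyte markers took 0.110 to 0.114% of the counts in GSNOR KO and 0.0820 to 0.124% in WT, with 1 called lower.

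**Figure D3:**
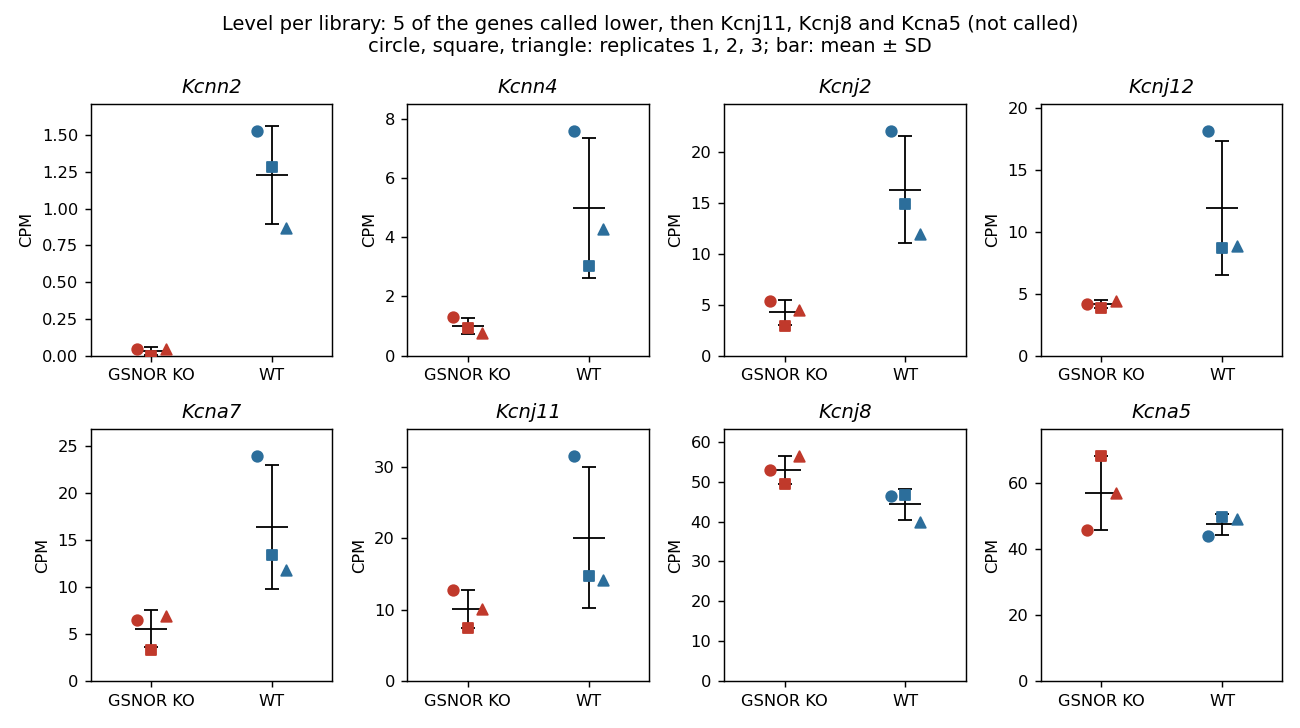
CPM in each library, GSNOR KO left of WT, for 5 potassium channel genes called lower and for Kcnj11, Kcnj8 and Kcna5, which were not called. Bars give the mean and SD of 3 libraries. The groups overlap for Kcna5 alone among these 8 genes.

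Of the 20 voltage-gated channel genes 2 fell and 0 rose, and the class median log2 fold change was -0.13. Kcna7 encodes Kv1.7, a channel known from skeletal muscle and heart. It was at 6.43, 3.28 and 6.92 CPM in GSNOR KO replicates 1 to 3, against 23.9, 13.4 and 11.8 CPM in WT replicates 1 to 3 (log2 fold change -1.56, SE 0.364, edgeR adjusted p = 0.0482). The groups did not overlap, and the adjusted p lay at the edge of the threshold, at 0.0508 with RLE factors and 0.0519 with library totals. Kcnq5, the gene of Kv7.5, was at 2.47, 2.29 and 1.71 CPM in GSNOR KO and at 5.12, 2.57 and 3.39 CPM in WT, and was not called (log2 fold change -0.78, edgeR adjusted p = 0.165).

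Kcnc1 and Kcnc4 encode Kv3.1 and Kv3.4, of a subfamily that opens at strong depolarization and closes fast. Kcnc1 was at 3.15, 0.942 and 2.11 CPM in GSNOR KO and at 7.92, 3.95 and 4.76 CPM in WT (log2 fold change -1.42, edgeR adjusted p = 0.0968). Kcnc4 was at 4.50, 2.33 and 4.59 CPM in GSNOR KO and at 11.9, 5.83 and 6.82 CPM in WT (log2 fold change -1.11, edgeR adjusted p = 0.0991). Both had groups that did not overlap and were highest in WT replicate 1, yet neither was called.

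Kcna5, the most abundant voltage-gated gene by FPKM, was not called. It was at 45.7, 68.2 and 56.9 CPM in GSNOR KO replicates 1 to 3, against 43.8, 49.6 and 49.0 CPM in WT replicates 1 to 3 (log2 fold change 0.26, SE 0.156, edgeR adjusted p = 0.310). The groups overlapped through GSNOR KO replicate 1. Kcns3, a silent subunit that joins other voltage-gated subunits, had a log2 fold change of -0.30 (edgeR adjusted p = 0.425). Kcna1, the gene of Kv1.1, was at 9.53, 10.5 and 8.99 CPM in GSNOR KO and at 5.08, 9.10 and 8.37 CPM in WT (log2 fold change 0.36, edgeR adjusted p = 0.342). It is known from myelinated nerve, and the 8 Schwann cell markers took 0.0129 to 0.0205% of the counts in GSNOR KO and 0.0165 to 0.0257% in WT, with overlapping libraries. Kcng4, the least counted of the 42, had a log2 fold change of 0.30 (edgeR adjusted p = 0.742).

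The two-pore-domain genes were the class with the highest median log2 fold change, 0.53, but 0 of 5 passed the threshold in edgeR, in DESeq2 or in limma voom, and 0 had an unadjusted p under 0.05. Kcnk5, the gene of the pH-sensitive TASK-2, was at 0.989, 2.60 and 1.30 CPM in GSNOR KO and at 0.700, 0.689 and 1.01 CPM in WT, with only GSNOR KO replicate 1 below the highest WT library (log2 fold change 1.03, SE 0.456, edgeR adjusted p = 0.189). Kcnk4 encodes the mechanosensitive channel TRAAK and was at 2.29, 2.15 and 0.854 CPM in GSNOR KO and at 1.18, 0.597 and 1.14 CPM in WT, with overlapping groups (log2 fold change 0.85, edgeR adjusted p = 0.280). Its exons share 587 bases with Catsperz on the same strand, whose reads may be counted with it. Kcnk6, the gene of TWIK-2, had a log2 fold change of 0.07 (edgeR adjusted p = 0.865). Kcnk3, which the choice of genes left out, averaged 442.3 ± 59.9 CPM in GSNOR KO and 151.0 ± 23.6 CPM in WT (SD, n = 3 each).

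None of the 6 auxiliary subunit genes was called by edgeR, DESeq2 called 1 (Kcne4) and limma voom 0, and 1, again Kcne4, had an unadjusted p under 0.05. Kcne4, which encodes a single-span subunit that inhibits some voltage-gated channels, was at 1.17, 0.673 and 1.26 CPM in GSNOR KO, against 2.84, 2.21 and 2.01 CPM in WT (log2 fold change -1.18, SE 0.348, edgeR adjusted p = 0.0780). The groups did not overlap. Of the genes of the cytoplasmic Kv beta subunits, Kcnab2 had a log2 fold change of -1.18 (edgeR adjusted p = 0.219) and Kcnab3 one of 0.51 (edgeR adjusted p = 0.370). Kcnab2 was at 9.10 CPM in WT replicate 1 and between 1.35 and 3.93 CPM in the other 5 libraries. Kcnip3, a calcium-binding partner of Kv4 channels, had a log2 fold change of -0.01 that turned positive with RLE factors (edgeR adjusted p = 0.990). A further 13 genes, 10 of them voltage-gated, had overlapping groups and log2 fold changes between -0.77 and 0.53, and their smallest edgeR adjusted p was 0.380.

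Several of the genes had the same highest and lowest library as the skeletal muscle markers. The muscle score, the mean log2 CPM of the 17 markers about its mean, was -0.42, -1.10 and -0.53 in GSNOR KO replicates 1 to 3, against 1.53, 0.27 and 0.24 in WT replicates 1 to 3. Kcnj2, Kcnj12, Kcna7 and Kcnj11 were highest in WT replicate 1 and lowest in GSNOR KO replicate 2, as the score was. The macrophage score had the same ends, at 0.99 in WT replicate 1 and -0.76 in GSNOR KO replicate 2. Over all 42 genes GSNOR KO replicate 2 was the lowest GSNOR KO library in 23, and WT replicate 1 the highest WT library in 16. Kcnn4 was highest in WT replicate 1 too. The order within GSNOR KO was close for some genes. Kcnj12 had 93, 85 and 99 counts in GSNOR KO replicates 1 to 3, and Kcnn4 had 29, 21 and 17.

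**Figure D4:**
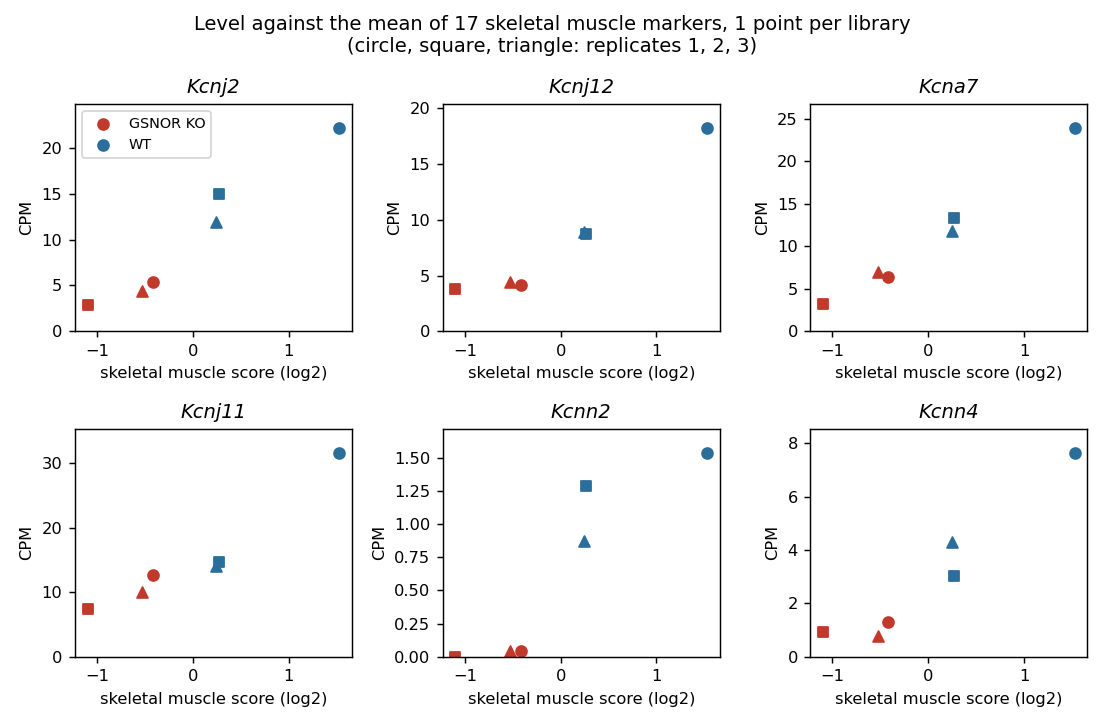
CPM of 6 potassium channel genes against the skeletal muscle score of the same library, with 1 point per library. Kcnj2, Kcnj12, Kcna7 and Kcnj11 are highest in WT replicate 1, where the score is 1.53, and lowest in GSNOR KO replicate 2, where it is -1.10. Kcnn4 is also highest in WT replicate 1 and is low in every GSNOR KO library.

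With the muscle score as a covariate edgeR called 0 of the 42 genes in either direction, beside 0.511% of all genes called lower and 0.635% called higher. At an unadjusted p under 0.05, 7 of the 42 were lower and 1 higher, beside 12.4% and 11% of all genes. The score differs between the groups itself, so genotype and muscle content cannot be told apart by this fit. Of the 14 genes at an unadjusted p under 0.05, 11 moved nearer to 0 and 2 changed sign, and their median log2 fold change was -0.57 with the covariate, against -1.47 without it. These 14 were picked by their p without the covariate. Over all 42 genes the median was -0.34 with the covariate, against -0.28 without it, and 32 were negative, against 28. Kcna7 had a log2 fold change of -0.36 (edgeR adjusted p = 0.459) and Kcnj12 one of -0.44 (edgeR adjusted p = 0.363). Kcnj2 was at -1.02 (edgeR adjusted p = 0.0808), against -1.95 without the covariate, and Kcnn4 at -1.19 (edgeR adjusted p = 0.185), against -2.31. Kcnn2 was at -4.47 (edgeR adjusted p = 0.0610), against -5.12 without the covariate. Leaving out WT replicate 1 instead kept the sign of all 14 and gave a median of -1.05.

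**Figure D5:**
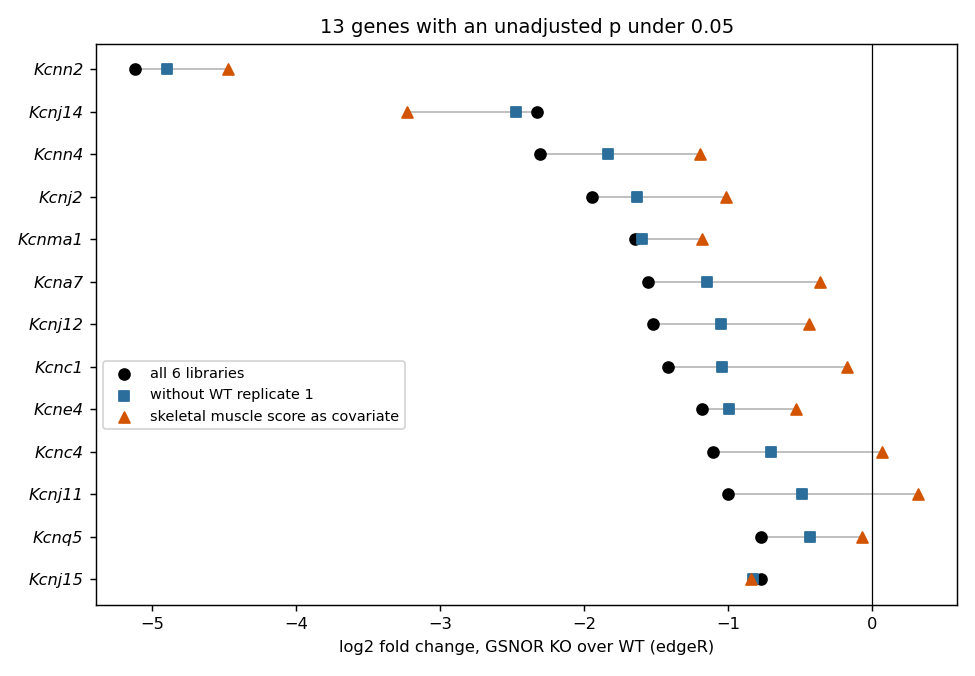
Log2 fold change, GSNOR KO over WT, of 13 genes with an unadjusted p under 0.05, in 3 edgeR fits. With the muscle score as covariate Kcnj11 and Kcnc4 lie right of 0, while Kcnj14 and Kcnj15 lie farther from 0 than in the fit of all 6 libraries.

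Other genes that move potassium or share the work of these channels were taken from a written list of 57, of which 38 were tested, 2 rose and 4 fell, against 3.9% and 3.14% of all tested genes. In the sodium-potassium pump, which builds the gradient the channels use, Atp1b1, a beta subunit, and Fxyd6, a regulator, fell with log2 fold changes of -1.25 (edgeR adjusted p = 0.0485) and -1.63 (edgeR adjusted p = 0.0373). Slc12a7, which encodes the potassium-chloride cotransporter KCC4, rose, at 152.9, 213.6 and 183.3 CPM in GSNOR KO against 68.5, 75.2 and 88.1 CPM in WT (log2 fold change 1.25, edgeR adjusted p = 0.0181). Cacna1s and Scn4a, the skeletal muscle calcium and sodium channel genes, fell with log2 fold changes of -1.61 (edgeR adjusted p = 0.0457) and -1.57 (edgeR adjusted p = 0.0439).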

How the data were processed

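RNA was measured by RNA-seq in 3 GSNOR KO and 3 WT samples. The authors deposited raw read counts per gene and FPKM values, per the file headers, in 1 table of all samples, and no column of another sample was present (0 unused). The submitters' processing notes name GRCm38 and mm10, while for the aligner, counter and strand setting nothing is given in the sources used here. Counts were filtered with filterByExpr, scaled with TMM and tested with edgeR 4.0.16 (robust quasi-likelihood F test, 2-sided), adjusted by Benjamini-Hochberg over 13694 genes at a threshold of 0.05. The test was also run on simulated counts with a fixed dispersion and no shift in cell content between libraries. It recovered 76 of 100 changes of 1 and 98 of 100 changes of 2 on the log2 scale, with 3 false calls. These settings are simpler than the data, so that run does not vouch for the calls here. Totals of 20277594 to 23961574 counts make a count of 3 worth 0.131 to 0.138 CPM. FPKM served for levels between genes. An exact permutation test of 3 against 3 cannot go below 0.1 and was not used.

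The genes and lists were chosen with earlier results of these data known. Genes were named if called, if their unadjusted p was under 0.05, if the log2 fold change was at least 1 in size without overlap, if among the 8 highest by FPKM, or if among the 2 highest or 2 lowest fold changes of a class. Adh5, Kcnk3 and the genes next to the count limit were added. Results of some of these genes are not reported here, though counts and fits include them. Groups came from the sample labels. Alternatives were RLE factors, library totals, 2 other filters, DESeq2 1.42.0, limma 3.58.1 on voom and on log2(FPKM + 0.1), no robust dispersion, a replicate block, the skeletal muscle score as a covariate and each library left out. Coordinates came from GENCODE M21 and promoter sequence from RefSeq. With chromosome 18 left out, promoters were matched for 29 of the 42 genes. Motifs were searched in the 250 bases before the start, so Kcnn2, which lies on chromosome 18, was not searched. Protein sequences were not used here.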

Additional observations from a re-analysis of the deposited data

How the results depend on the processing

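None of the 42 genes was called higher in any fit. The count called lower, 6 as reported, was 5 with RLE factors (beside 399 of 13694 genes called lower) and 5 with library totals (406 of 13694). It was 5 with a filter of 1 CPM reached by 3 libraries (450 of 12716) and 4 with no filter (338 of 17717). It was 12 with DESeq2 (beside 8.76% of all genes called lower) and 2 with limma voom (1.94%). It was 2 with limma on FPKM (77 of 13694 genes) and 0 with the muscle score as a covariate (0.511%). Calls over all genes, 964 as reported, numbered 2344 with DESeq2, 258 with limma on FPKM and 157 with the covariate. With library totals they split into 314 higher and 406 lower, against 534 and 430 as reported. With each library left out, calls over all genes ranged from 3 to 2844, the potassium channel genes called lower from 0 to 8 and the median log2 fold change of all 42 from -0.47 to -0.12. None of the 6 potassium channel genes called lower kept its call through all 6 omissions. The causes were not tested. Same-numbered samples deviated together with correlations of 0.157, 0.132 and -0.056, so the numbers were not taken as pairs. The replicate block gave 8 of the 42 genes called lower, beside 508 of 13694 genes called lower, and 884 calls over all genes in either direction.

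Signs turned for genes that were not called, or at an unadjusted p under 0.05 alone. With the covariate the log2 fold change was -0.33 for Kcna1, -0.0847 for Kcna5, 0.73 for Kcnab2, -0.22 for Kcnab3, 0.0651 for Kcnc4, 0.32 for Kcnj11, 0.77 for Kcnk13, -0.50 for Kcnk6 and 0.52 for Kcnn1. Kcnip3 was at 0.0093 with RLE factors, 0.0094 with DESeq2 and 0.039 with limma on FPKM. Kcnn1 was at 0.0046 with RLE factors and 0.0045 with DESeq2. With each library left out, Kcnip3 ranged from -0.25 to 0.17, Kcnk6 from -0.0504 to 0.29, Kcnn1 from -0.10 to 0.17 and Kcnt1 from -0.74 to 0.24. Counts near 1 CPM limit the genes with the fewest reads.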
